A study of Gallus gallus with 2 samples.

Results

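The 14-3-3 protein genes were examined in back skin of Lueyang chickens with black skin (BS) and with white skin (WS). The 6 genes taken as the family, *YWHAE*, *YWHAQ*, *YWHAG*, *YWHAB*, *YWHAZ* and *YWHAH*, were found by an exact match of the symbol in the table of all loci, and each symbol had 1 locus. They are 6 of 22848 loci with an estimate. The family was picked with its expression values already known, so its values are given as a description, with no test. The birds were females at 16 weeks of age, and the biopsies, 8 mm wide, came from the left side of the back. Of 5 birds sampled per color, RNA of 3 was pooled, which gave 1 library for black skin and 1 library for white skin. Pooling hides the spread between birds, and with 1 library per color no difference could be set against replicate error. No locus with an estimate carried exactly the symbol of a further family gene, *SFN*, which was not analysed here.

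The 14-3-3 proteins are small acidic adaptors that are made in nearly all eukaryotic cells. They form cup-shaped dimers, and each monomer can hold a stretch of a client protein that carries a phosphorylated serine or threonine. Binding can keep a client in the cytoplasm, hide or expose its active part, or bring it close to another protein. The clients include the FOXO factors, the Hippo pathway coactivators and several cell cycle proteins. In mammals *MITF*, the master regulator of pigment cells, is among them. The family got the letters of its symbols from its role as an activator of tyrosine and tryptophan hydroxylase in the brain of mammals.

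Expression was deposited as FPKM, the fragments mapped to a locus per length of its exon model and per number of mapped fragments, so levels of different genes are compared per length. Differences are given as log2FC, the log2 of black over white after 1 was added to each FPKM. Of 15020 loci that reached 1 FPKM in BS or in WS, at least 2-fold more in BS was seen for 693 and at least 2-fold less for 855, with -0.06 as the median log2FC. The number of fragments behind a value is unknown, so no counting error could be given. A single locus without a gene symbol, with a span of 311 bp, held 30.7% of all FPKM in BS against 54.7% in WS. When the FPKM of each library were rescaled to a common sum (TPM), BS was shifted by 0.68 on the log2 scale relative to WS, 1353 loci had at least 2-fold more in BS and 164 had at least 2-fold less, and the median log2FC of all loci was 0.50.

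*YWHAE* had by far the highest FPKM of the 14-3-3 genes and was the only one of the 6 at least 2-fold apart between the libraries. It encodes the epsilon protein, which in mammals pairs mainly with other family members. Its locus shares a span with another gene, and FPKM per gene cannot show whether its value comes from the whole transcript or from a short part of it, which limits what its level, rank and share of the family mean. *YWHAE* stood at 11647.8 FPKM in BS, against 43041.3 FPKM in WS. The level was 3.70-fold lower in BS (log2FC -1.89), whereas the other 5 genes lay within 2-fold. That is 1 of 6 genes, beside 10.3% of all loci tested (4.61% higher and 5.69% lower in BS), and nothing is read from it because the family was chosen on this contrast. Under TPM, the log2FC of *YWHAE* was -1.21. *YWHAE* was the locus with rank 16 in BS and rank 5 in WS when loci were ordered from the highest FPKM down.

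**Figure D1:**
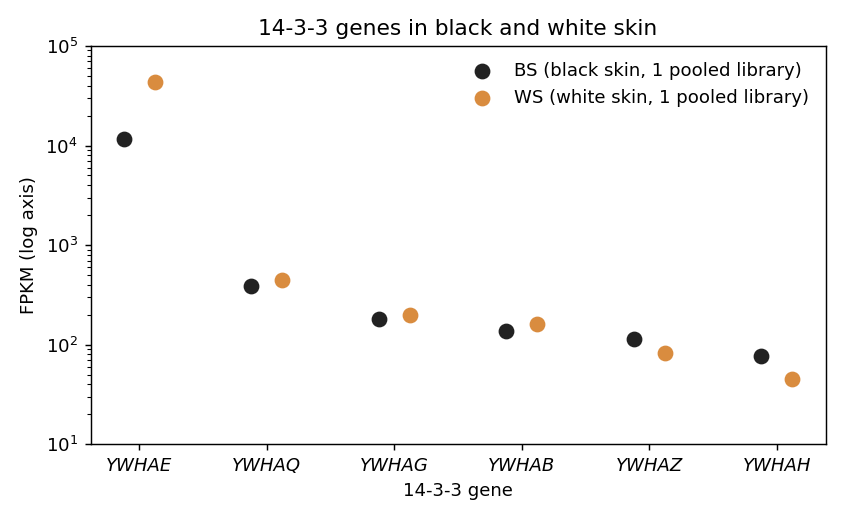
Expression of the 6 genes in FPKM on a log axis, with 1 point for the black skin library (BS, left of each pair) and 1 for the white skin library (WS, right of each pair). *YWHAE* lies 30.1-fold above the next gene in BS and 96.6-fold above it in WS, whereas the other 5 genes lie between 45.6 and 446 FPKM.

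*YWHAQ*, *YWHAG* and *YWHAB* were at close to equal levels in both libraries. *YWHAQ* encodes the theta (also tau) protein, known from T cells and brain in mammals, and stood at 386 FPKM in BS against 446 FPKM in WS (log2FC -0.21). *YWHAG* encodes the gamma protein, which is abundant in muscle and brain of mammals. It stood at 179 FPKM in BS against 199 FPKM in WS (log2FC -0.15). *YWHAB* encodes the beta protein, and stood at 136 FPKM in BS against 159 FPKM in WS (log2FC -0.23). All 3 genes were slightly lower in BS in the deposited FPKM, but under TPM they were higher, with log2FC values of 0.47, 0.52 and 0.44 for *YWHAQ*, *YWHAG* and *YWHAB*. These values lie close to the median of all loci under TPM, but the added 1 shrinks that median more than the values of these genes. Under the other scalings tried, the 3 genes stayed slightly lower in BS, with log2FC values between -0.16 and -0.02. The direction of the 3 genes thus depends on whether TPM is used. TPM shifts BS by 0.68 on the log2 scale, whereas the other scalings shift it by 0.06 to 0.13. The shift of 0.06 came from rescaling to a common sum with the most abundant locus left out.

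*YWHAZ* and *YWHAH* were higher in BS in the deposited FPKM and under every scaling tried. *YWHAZ* encodes the zeta protein, a widely studied adaptor of survival and adhesion signaling, and stood at 114 FPKM in BS against 82.2 FPKM in WS. Its level was 1.38-fold higher in BS (log2FC 0.46). *YWHAH* encodes the eta protein, and stood at 77.1 FPKM in BS against 45.6 FPKM in WS. Its level was 1.69-fold higher in BS (log2FC 0.74), the largest difference toward BS among the 6 genes. Neither gene reached 2-fold, apart from TPM, where the log2FC values were 1.11 for *YWHAZ* and 1.37 for *YWHAH*. The median log2FC of all loci under TPM was 0.50. Of the 15020 loci, 84.9% had a lower log2FC than *YWHAZ* and 92.1% had a lower one than *YWHAH*.

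The order of the 6 levels was the same in both libraries, from *YWHAE* through *YWHAQ*, *YWHAG*, *YWHAB* and *YWHAZ* to *YWHAH*. Below *YWHAE*, the widest step in that order was between *YWHAQ* and *YWHAG*, at 2.16-fold in BS and 2.24-fold in WS. *YWHAG* was 1.32-fold above *YWHAB* in BS and 1.25-fold above it in WS. The step from *YWHAB* to *YWHAZ* was 1.20-fold in BS and 1.94-fold in WS, and that from *YWHAZ* to *YWHAH* was 1.47-fold in BS and 1.80-fold in WS. Whether any of these steps goes beyond the spread between birds cannot be told from a single library per color. From the second gene to the lowest, the levels spanned 5.01-fold in BS and 9.77-fold in WS.

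Summed over the 6 genes, the family stood at 12539.9 FPKM in BS, against 43973.1 FPKM in WS (log2 ratio -1.81), and *YWHAE* made up 92.9% of the sum in BS and 97.9% in WS. Without *YWHAE* the sum was 892 FPKM in BS against 932 FPKM in WS. The log2 ratio of that sum, with nothing added to the FPKM, was -0.06, beside a median log2FC of -0.06 over all loci. Within the sum of 5 genes, *YWHAQ* held 43.3% in BS and 47.8% in WS. The shares of *YWHAG* were 20.1% in BS and 21.3% in WS, and those of *YWHAB* were 15.2% in BS and 17.1% in WS. *YWHAZ* held 12.7% in BS and 8.82% in WS, and *YWHAH* held 8.64% in BS and 4.89% in WS. Under TPM the log2 ratio of the sum without *YWHAE* was 0.617. The median of 0.50 over all loci under TPM includes the added 1, so it is not the same measure. With the median log2 ratio of all loci set to 0, the log2 ratio of the sum without *YWHAE* was 0.0122. The shares do not depend on the scaling, and those of *YWHAZ* and *YWHAH* were larger in BS.

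All 6 genes were among the more abundant loci of skin. Of 18608 loci above 0 in at least 1 library, 92.5% had a lower level than *YWHAH*, the lowest of the family, in BS and 86.8% did in WS. *YWHAQ*, the second highest, had rank 367 in BS and rank 351 in WS. With 1 added to each FPKM, loci with high levels were more often apart than others. The added 1 shrinks differences between low values, and shares by level were not computed with another pseudocount. Of 7132 loci with 1 to 10 FPKM in the higher library, 846 were at least 2-fold apart. Of 6597 loci with 10 to 100 FPKM there, where *YWHAH* lies, 462 were. Of 1053 loci with 100 to 1000 FPKM in the higher library, where *YWHAQ*, *YWHAG*, *YWHAB* and *YWHAZ* lie, 16.3% were at least 2-fold apart. Of 238 loci at 1000 FPKM or more, where *YWHAE* lies, 28.6% were at least 2-fold apart, 25 of them higher in BS and 43 lower, and the median log2FC was -0.36. Among these 238 loci, 11 had a lower log2FC than *YWHAE*.

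**Figure D2:**
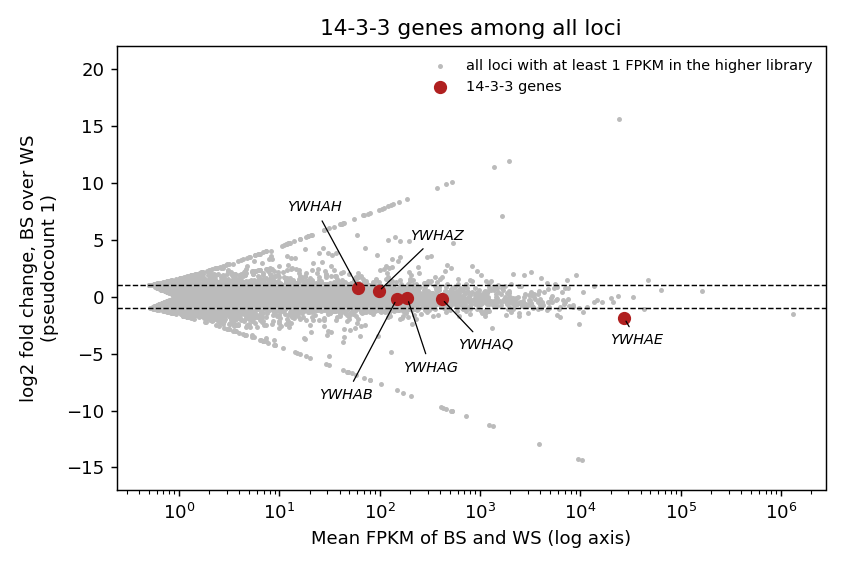
Log2FC of BS over WS against the mean FPKM of both libraries (log axis) for 15020 loci (gray points) and the 6 genes (red points), with dashed lines at 2-fold. *YWHAE* lies toward the right, below the lower line, and the other 5 genes lie between both lines. The slanted outer rows of gray points are loci listed at 0 in 1 library.

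Named loci close to *YWHAE* in mean level ranged from equal in both libraries to listed at 0 in 1 of them. *CLU*, a secreted chaperone, stood at 32598.2 FPKM in BS against 33584.7 FPKM in WS (log2FC -0.04). The ribosomal protein gene *RPS29* stood at 17988.2 FPKM in BS against 24669.6 FPKM in WS (log2FC -0.46). The microRNA locus *gga-mir-22*, with a span of 100 bp, stood at 48926.1 FPKM in BS, whereas WS listed it at 0. *YWHAE* was thus neither alone at its level nor alone in its direction. Of 26 loci with 10000 FPKM or more in the higher library, 7 had at least 2-fold less in BS and 4 had at least 2-fold more.

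The positions of the genes are given as deposited. The submitters' notes name the build galGal4 and the paper's methods name a different reference file, so the build is unsettled. *YWHAE* is locus XLOC_007568 on chromosome 19 from 5160406 to 5226072, a span of 65666 bp. *YWHAG* is locus XLOC_007540 on the same chromosome from 4208940 to 4215687. *YWHAQ* is XLOC_014155 on chromosome 3 from 99138710 to 99165676, and *YWHAZ* is XLOC_009424 on chromosome 2 from 133774465 to 133805768. *YWHAB* is XLOC_010465 on chromosome 20 from 5206920 to 5219910, and *YWHAH* is XLOC_006427 on chromosome 15 from 9078606 to 9087386. The RefSeq annotation of the later assembly GRCg7b, used here for names and gene order alone, places all 6 symbols on the same chromosomes.

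The *YWHAE* locus has the same start and end as that of *MYO1C*, a class I myosin gene, so the deposited span covers both genes and the span of *YWHAE* alone is not given. In GRCg7b, *YWHAE* lies between *CRK* and *MYO1C*. *MYO1C* stood at 86.7 FPKM in BS against 85.1 FPKM in WS (log2FC 0.03), so the locus that shares the coordinates of *YWHAE* differed neither in the same way nor at a like level. The nearest named loci outside the shared span were also close to equal. *CRK*, an adaptor of tyrosine kinase signaling, stood at 28.3 FPKM in BS against 22.6 FPKM in WS, and *INPP5K*, a lipid phosphatase gene, at 20.6 FPKM in BS against 24.4 FPKM in WS. How fragments of the shared span were divided between *YWHAE* and *MYO1C* was not tested. Of the 26 loci with 10000 FPKM or more, 1 had a deposited span longer than this shared one.

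Within 300 kb on both sides of *YWHAE*, 36 other loci reached 1 FPKM in either library. Of these, 18 were higher in BS by any margin and 18 were lower, with a median log2FC of 0.00. The 2 loci at least 2-fold apart were *gga-mir-22*, given above, and *SERPINF2*, the gene of the plasmin inhibitor, with 50.9 FPKM in BS against 104 FPKM in WS. Over all 322 loci of chromosome 19 with at least 1 FPKM, 8.07% were at least 2-fold apart and the median log2FC was -0.06. The loci around *YWHAE* were thus split in direction, and *SERPINF2* was the only one of them at least 2-fold lower in BS.

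**Figure D3:**
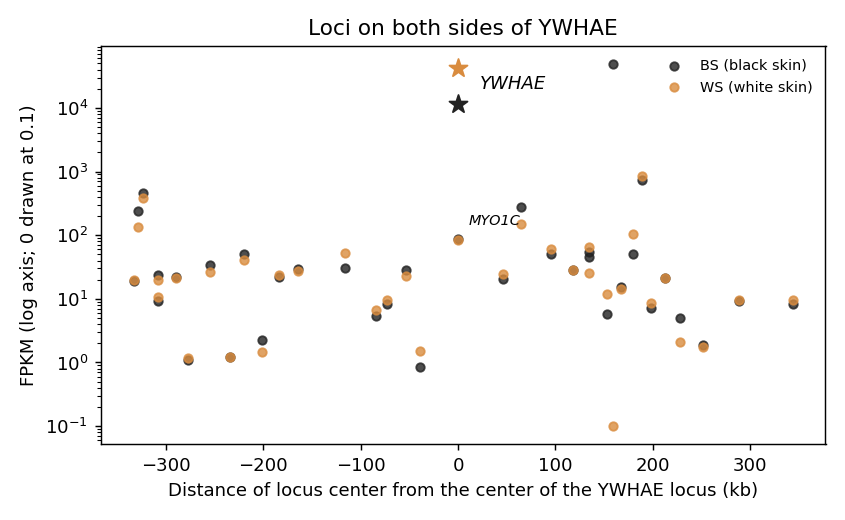
FPKM (log axis, with values of 0 drawn at 0.1) of loci against the distance of their center from the center of the *YWHAE* locus, in BS (black) and WS (orange), with *YWHAE* as stars. Apart from *gga-mir-22*, which stood at 48926.1 FPKM in BS, whereas WS listed it at 0, all neighbors lie below 1000 FPKM and the points of both libraries lie close together.

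*YWHAH* also shares its coordinates, here with a locus named only by the identifier ENSGALG00000023333. That locus stood at 64.5 FPKM in BS against 79.9 FPKM in WS (log2FC -0.31), the opposite direction to *YWHAH*. The division of fragments between these loci was not tested. Of the 18608 loci above 0, 24.7% share their coordinates with another such locus. The other 4 genes overlapped no expressed locus, so their values do not depend on such a division. Next to *YWHAG* lies *HSPB1*, a small heat shock protein gene, which stood at 2412.84 FPKM in BS against 5197.22 FPKM in WS (log2FC -1.11) at a distance of 2474 bp. *SLC5A1*, a sodium/glucose cotransporter gene beside *YWHAH*, had 3.12 FPKM in BS against 8.24 FPKM in WS. The neighbors given are the nearest named loci that reached 1 FPKM in either library, so other loci can lie between. *PABPC1L*, 1858 bp from *YWHAB*, stood at 1.15 FPKM in BS against 1.03 FPKM in WS. On the other side of *YWHAB*, 81608 bp away, lies the secreted protein gene *WISP2*. It stood at 3.66 FPKM in BS against 0.790 FPKM in WS, a value below 1 FPKM. The neighbors *PABPC1* and *ZNF706* of *YWHAZ* and *ADAM17* and *TAF1B* of *YWHAQ* were all within 2-fold, as were *DEPDC5* beside *YWHAH* and the merged locus of *DTX2* and *UPK3B* beside *YWHAG*.

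The genes of proteins that bind to 14-3-3 proteins, or that write or erase the phosphates they read, were within 2-fold about as often as other loci. Of 122 genes in 8 lists written from textbook knowledge, 90 were matched by symbol and 78 reached 1 FPKM in either library. Of these 78 genes, 2 had at least 2-fold more in BS and 3 had at least 2-fold less, which is 6.41% beside the 10.3% of all loci. The median log2FC was -0.02, beside -0.06 over all loci, and by any margin 38 genes were higher in BS and 40 were lower. Under TPM the medians of the 7 lists with measured genes lay between 0.28 and 0.64, beside 0.50 over all loci, so the higher and lower counts below hold for the deposited scale. A further 12 matched genes were below 1 FPKM in both libraries, 5 of them listed at 0 in both. Of those at 0, *RICTOR*, *PRKAA1* and *DAPK1* lie on chromosome Z, *HDAC7* on the sequence E22C19W28_E50C23 and *KSR2* on chromosome 15. No partner gene on chromosome Z or on E22C19W28_E50C23 was above 0, and whether loci there were quantified was not tested. The 78 genes had a median of 18.2 FPKM in the higher library. Of them, 7 stood above *YWHAH* in BS and 18 did in WS.

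Kinase and scaffold clients in signaling were evenly split, with 8 of 16 measured genes higher in BS and 8 lower by any margin (median log2FC -0.01). The tyrosine kinase gene *ABL1* stood at 51.8 FPKM in BS against 50.7 FPKM in WS, and *PI4KB*, a lipid kinase gene of the Golgi, at 52.8 FPKM in BS against 79.5 FPKM in WS. *GRB10*, which restrains signaling of the insulin receptor, was the only member at least 2-fold apart. It stood at 7.95 FPKM in BS against 3.35 FPKM in WS (log2FC 1.04), in a locus that overlaps another expressed locus.

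Clients that act in transcription were all within 2-fold. Of 12 measured genes, 6 were higher in BS and 6 lower by any margin, and the median log2FC was 0.00. The Hippo pathway coactivator genes *YAP1* and *WWTR1* led the list. *YAP1* stood at 49.0 FPKM in BS against 50.2 FPKM in WS, and *WWTR1* at 44.3 FPKM in BS against 42.0 FPKM in WS. A second locus of *YAP1* stood at 1.65 FPKM in BS against 0.922 FPKM in WS (log2FC 0.46). *MITF*, the pigment cell regulator, stood at 26.9 FPKM in BS against 30.4 FPKM in WS (log2FC -0.17). *FOXO3*, a regulator of stress response and survival, stood at 20.3 FPKM in BS against 18.4 FPKM in WS.

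Among 5 cell death and cell cycle clients, none was at least 2-fold apart, and 2 were higher in BS and 3 lower by any margin (median log2FC -0.17). *CDKN1B*, the cell cycle inhibitor p27, came close, with 292 FPKM in BS against 579 FPKM in WS (log2FC -0.98) in a locus that spans only 784 bp. A second locus of the same symbol stood at 133 FPKM in BS against 179 FPKM in WS (log2FC -0.43). *CASP2*, a caspase gene, stood at 9.64 FPKM in BS against 9.63 FPKM in WS.

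Clients of the cytoskeleton, cell junctions and adhesion included 3 genes at least 2-fold apart. Of 15 measured genes, *PKP2* had at least 2-fold more in BS, *GP1BA* and *PKP3* had at least 2-fold less, and the median log2FC was -0.23. Over all loci tested, 4.61% had at least 2-fold more in BS and 5.69% had at least 2-fold less. Whether 3 of 15 genes goes beyond these shares was not tested. *GP1BA* encodes the platelet receptor for von Willebrand factor, whose tail binds the zeta protein in mammals. It stood at 10.3 FPKM in BS against 45.8 FPKM in WS (log2FC -2.05), in the direction opposite to *YWHAZ*. *PKP3* and *PKP2* encode plakophilins of the desmosome. *PKP3* stood at 68.7 FPKM in BS against 147 FPKM in WS (log2FC -1.09). It is also counted among the keratinocyte markers, of which all measured ones were lower in BS in the deposited FPKM. *PKP2* stood at 1.86 FPKM in BS against 0.388 FPKM in WS (log2FC 1.04), values near or below the floor of 1 FPKM. The intermediate filament gene *VIM* was the most abundant partner, with 2155.94 FPKM in BS against 1740.96 FPKM in WS, and *CTNNB1*, the gene of beta-catenin, stood at 175 FPKM in BS against 204 FPKM in WS.

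**Figure D4:**
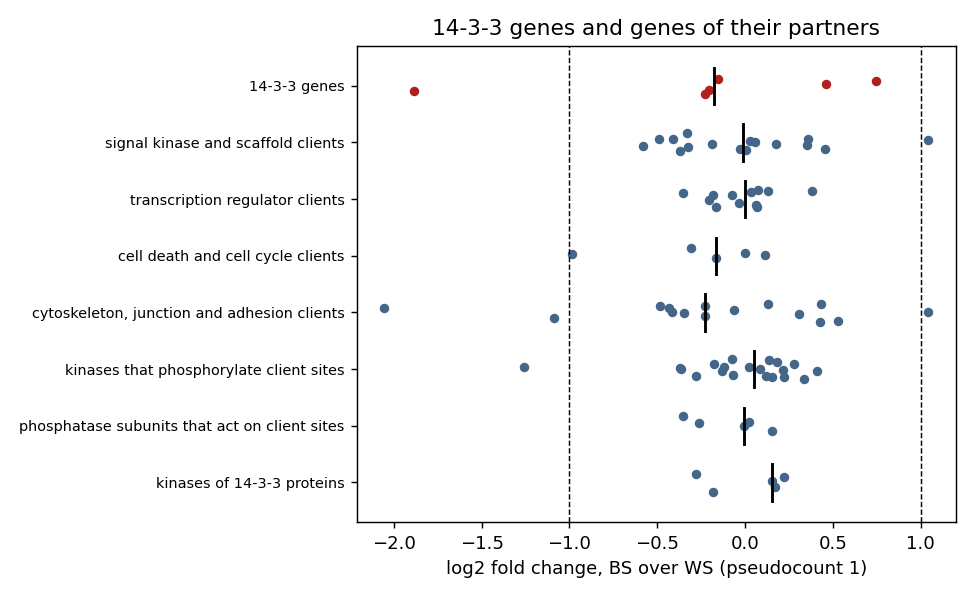
Log2FC of BS over WS for the 6 genes (red) and for the measured genes of 7 partner lists (blue), 1 point per gene, with black bars at the medians and dashed lines at 2-fold. *YWHAE* and *GP1BA* lie farthest to the left, at -1.89 and -2.05, and most other points lie within the dashed lines.

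Of 20 measured kinases that can phosphorylate client sites, 11 were higher in BS and 9 lower by any margin, with a median log2FC of 0.05. *PIM1*, a survival kinase gene, was the only one at least 2-fold apart, with 42.5 FPKM in BS against 103 FPKM in WS (log2FC -1.26) in a locus that spans 627 bp. *SGK1*, a kinase gene induced by steroids, stood at 55.8 FPKM in BS against 52.6 FPKM in WS. *AKT1*, which phosphorylates the FOXO clients, stood at 41.0 FPKM in BS against 30.6 FPKM in WS, and *MARK3*, known in mammals to mark *MITF* for binding, at 35.2 FPKM in BS against 38.6 FPKM in WS. None of these 3 genes was 2-fold apart.

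Of the phosphatases that remove such phosphates, all 5 measured subunit genes were within 2-fold (median log2FC -0.01). *PPP1CB*, a catalytic subunit of protein phosphatase 1, stood at 178 FPKM in BS against 213 FPKM in WS. *PPP2CA*, a catalytic subunit of protein phosphatase 2A, stood at 102 FPKM in BS against 131 FPKM in WS. A second locus of that symbol stood at 73.1 FPKM in BS against 86.4 FPKM in WS (log2FC -0.24). Of the kinases that phosphorylate the 14-3-3 proteins themselves, 5 were measured and none was 2-fold apart (median log2FC 0.15). *CSNK1A1*, a casein kinase gene, stood at 122 FPKM in BS against 105 FPKM in WS, and *PRKCD*, a protein kinase C gene, at 9.52 FPKM in BS against 8.35 FPKM in WS. The genes of monoamine and melatonin synthesis, whose enzymes are clients in mammals, *TH*, *TPH1*, *TPH2* and *AANAT*, were all below 1 FPKM in both libraries.

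Markers of several skin cell types differed between the libraries beside these values. In pooled tissue, fewer cells of a type and less RNA per cell cannot be told apart. Among all loci tested, the share with at least 2-fold more in BS was 4.61%, and that with at least 2-fold less was 5.69%. Whether the marker counts go beyond these shares was not tested. The marker counts below hold for the deposited scale, since TPM shifts BS by 0.68 on the log2 scale. The keratinocyte markers *KRT14* (log2FC -0.54) and *PERP* (log2FC -0.48) differed by less than that shift and would not be lower under TPM. The lowest log2FC of the 11, that of *JUP* at -1.33, would then be within 2-fold. *JUP* was also the most abundant of them, in a locus that overlaps 4 other expressed loci. The other scalings tried shift BS by 0.06 to 0.13, and with such shifts *KRT14* and *PERP* would stay lower in BS. All 11 measured keratinocyte markers were lower in BS, 5 of them at least 2-fold, and their summed level was 2750 FPKM in BS against 5290 FPKM in WS. *KRT5* and *KRT75* were listed at 0 in both libraries. Of 8 skeletal muscle markers 7 were higher in BS, and the sum was 27957 FPKM in BS against 16027 FPKM in WS, with *TNNC2* listed at 0. Of 12 red blood cell markers listed, 5 were matched by symbol and 4 were measured. All 4 were lower in BS, with a sum of 2605 FPKM in BS against 5196 FPKM in WS. Of 8 melanocyte markers 6 had at least 2-fold more in BS, and the sum was 179 FPKM in BS against 72.8 FPKM in WS, with *TYRP1*, *PMEL* and *MLANA* listed at 0. Of 6 fibroblast markers listed, 4 were matched and measured. Of these 4, 1 was at least 2-fold lower in BS and 2 were higher by any margin. Their sum was 3897 FPKM in BS against 7910 FPKM in WS. None of 5 adipocyte, 3 endothelial and 5 leukocyte markers was 2-fold apart. Their sums were 2452 FPKM in BS against 1948 FPKM in WS for adipocytes, 162 FPKM in BS against 131 FPKM in WS for endothelium and 141 FPKM in BS against 116 FPKM in WS for leukocytes, with *LPL* and *TEK* listed at 0 in both libraries. The sums of keratinocyte, red blood cell and fibroblast markers were thus lower in BS, as was *YWHAE*, and the other 5 sums were higher in BS, as were *YWHAZ* and *YWHAH*. *COL1A2* made up most of the fibroblast sum, at 2852 FPKM in BS against 6495 FPKM in WS. *ACTA1* made up most of the muscle sum, at 17804 FPKM in BS against 9387 FPKM in WS. Both lie in loci that overlap another expressed locus. *FABP4* made up most of the adipocyte sum, at 1715 FPKM in BS against 1326 FPKM in WS. *VWF* made up most of the endothelial sum, at 118 FPKM in BS against 88.0 FPKM in WS. The fibroblast, muscle, adipocyte and endothelial sums thus mainly follow single genes. *CSF1R* was the largest part of the leukocyte sum, at 71.1 FPKM in BS against 62.6 FPKM in WS. The part of these cell types in the levels of the 14-3-3 genes was not tested. Of the markers listed at 0, *TYRP1*, *MLANA*, *LPL* and *TEK* lie on chromosome Z. *KRT5*, *KRT75* and *PMEL* lie on the sequence E22C19W28_E50C23, and *TNNC2* on Un_random. No measured marker lies on any of these sequences. Whether their loci were quantified was not tested, so a 0 there does not show absence from skin.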

How the data were processed

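RNA-Seq was run by the authors on 2 libraries, 1 of black skin (BS) and 1 of white skin (WS), each from RNA of 3 birds. The authors deposited the expression of each locus as FPKM. Cuffdiff and galGal4 are named in the notes of the submitters, and Bowtie in the paper's methods. Versions are not given in the sources used here. The deposited tables also hold the authors' own fold changes, p values and q values, none of which was used. The FPKM of the 6 genes were the same in both deposited tables.

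Loci marked as failed (5 of 22853) were left out. Fold changes were computed as log2((BS + 1)/(WS + 1)), and only loci that reached 1 FPKM in either library were counted. Where a symbol had several loci, the one of highest mean FPKM stood for it. Loci were called overlapping where their deposited coordinates shared at least 1 bp. No p value was computed, since there were no replicates. The members and lists were chosen with earlier results of these data known.

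Named here are the 6 genes, loci that overlap them, their nearest named loci, members of the partner lists at least 2-fold apart, the 2 most abundant members of each list and the named loci nearest to *YWHAE* in level. *MITF*, *FOXO3*, *AKT1*, *MARK3*, *SERPINF2*, the genes of monoamine synthesis and the markers and partner genes listed at 0 were named after their values were seen. The same holds for *KRT14*, *PERP*, *JUP*, *COL1A2*, *ACTA1*, *FABP4*, *VWF* and *CSF1R*. With 2 libraries a pattern is a single ratio, so no genes of like pattern are named. Some genes that these rules pick are not reported here. Other settings tried were pseudocounts of 0.1 and 5, a floor of 0 or 5 FPKM, 5 further scalings of the libraries, sums over a symbol and leaving out overlapping loci. Computations used Python 3.11.15, pandas 2.3.3 and numpy 2.4.6, and figures were drawn with matplotlib 3.10.9.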

Additional observations from a re-analysis of the deposited data

How the results depend on the processing

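Over 11 alternatives, *YWHAE* stayed at least 2-fold lower in BS wherever it gave a value, with log2 fold changes between -1.89 and -1.21. It gave none when loci that overlap another were left out, and then 0 of the remaining 4 genes were 2-fold apart. Under TPM, 3 of 6 genes were 2-fold apart, *YWHAE* lower and *YWHAZ* and *YWHAH* higher. The change to TPM moved loci in general toward BS. Loci beyond 2-fold on the BS side rose from 693 to 1353, and those on the WS side fell from 855 to 164. *YWHAZ* and *YWHAH* moved with this shift, so nothing about the family is read from the count of 3. The log2 ratio of the sum without *YWHAE*, -0.06 as deposited, was 0.0122 with the median log2 ratio set to 0, 0.0118 with upper quartiles set equal, 0.0716 with totals set equal without the 50 most abundant loci, 0.617 under TPM and 0.00175 with the most abundant locus left out before rescaling to a common sum, a setting chosen after seeing the data. The median log2FC of all loci, with the added 1, was 0.50 under TPM. The added 1 shrinks this median more than the values of the 6 genes, so it is only a loose reference for them.

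The counts of loci at least 2-fold higher and lower in BS (693 and 855) were 1198 and 1559 with a pseudocount of 0.1, 287 and 306 with a pseudocount of 5, 447 and 487 with at least 5 FPKM, 1353 and 164 under TPM, 796 and 753 with the median log2 ratio set to 0 and 883 and 682 without the 50 most abundant loci. Without the most abundant locus they were 573 and 532. These settings change the floor, the pseudocount or the scale on which loci are counted. No paired analysis was possible because each skin color has 1 library.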
